A study of Mus musculus with 12 samples.

Results

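The collagen genes are the 44 entries, of 42329 in the deposited expression table, whose gene symbol has the form of a collagen alpha chain (Col, a type number, a and a chain number). They were measured by RNA sequencing in MC38 cells, a mouse colon adenocarcinoma line. One population of the cells held a control guide RNA (sgControl). The other held a guide RNA against Hcar1 (sgHcar1), the gene of a lactate receptor. Each was given PBS as vehicle or 20 mM lactate for 24 hours. The 4 groups, sgControl in PBS, sgControl in lactate, sgHcar1 in PBS and sgHcar1 in lactate, have 3 libraries each. The labels do not say whether the sgHcar1 cells were a pool or 1 clone, nor if libraries with the same label stem from different cultures. The p-values therefore measure the spread between these libraries, and any other difference between the 2 cell populations cannot be told apart from that of the guide.

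A collagen is made of 3 alpha chains wound into a triple helix, and each chain is the product of its own gene. Fibril-forming chains (types I, II, III, V, XI, XXIV and XXVII) build the banded fibres of connective tissue. Type IV makes the network of the basement membrane, type VI the beaded filaments around cells, type VII the fibrils that anchor epithelia, and type VIII a short-chain network. The fibril-associated collagens, or FACITs, sit on the surface of fibres, and the multiplexins types XV and XVIII sit in basement membranes. In the gut wall and in colon tumours most fibril-forming collagen comes from fibroblasts, while carcinoma cells can make basement membrane and other collagens of their own.

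Levels are given in FPKM, fragment counts scaled to the length of the gene model and to the size of the library, so they can be compared between genes. Differences are on the scale of log2(FPKM + 1), with a standard error (SE), from limma fitted to all 12 libraries, and the adjusted p is a Benjamini-Hochberg value over the 13736 genes that reached 1 FPKM in 3 or more libraries. A gene passed the test at an adjusted p under 0.05. The added 1 makes the change of a gene near 0 look smaller than it is in FPKM. Read counts were not in the table, so depth is unknown. Relative depth, estimated from the steps between low values, was 0.746 to 1 with the deepest library set to 1, and the log2 values of libraries within a group correlated at 0.9904 to 0.9923. The sum of FPKM over all entries was 310109 to 324562 in sgControl libraries, 362815 to 367977 in sgHcar1 in PBS and 411996 to 421984 in sgHcar1 in lactate. Hcar1 itself was listed at 0 in 11 libraries and at 0.0196 FPKM in 1 sgHcar1 PBS library, so the table gives no check of the guide. Of markers of colon epithelium, Epcam and Cdx2 were listed at 0 in all 12 libraries.

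Of the 44 collagen genes, 19 reached a mean of 1 FPKM in at least 1 group. They numbered 17 in sgControl in PBS, 16 in sgControl in lactate, 13 in sgHcar1 in PBS and 13 in sgHcar1 in lactate. By class, 7 of 11 fibril-forming chains reached that level, 3 of 6 type IV chains, 3 of 6 type VI chains, 1 of 3 short-chain network genes, 3 of 9 FACITs, 1 of 2 multiplexins, Col7a1, and none of the 4 transmembrane collagens or of the 2 others, Col26a1 and Col28a1. Of the 25 remaining genes, Col9a1 and Col26a1 were listed at 0 in every library. Another 11 stayed below 0.1 FPKM in every library: Col4a3, Col4a6, Col6a5, Col6a6, Col9a2, Col10a1, Col11a1, Col13a1, Col15a1, Col19a1 and Col25a1. The last 12 had their highest library between 0.101 and 0.875 FPKM: Col2a1, Col4a4, Col6a4, Col8a2, Col12a1, Col14a1, Col17a1, Col22a1, Col23a1, Col24a1, Col27a1 and Col28a1. Col17a1, a transmembrane collagen of the hemidesmosome, had the highest value among them. Of the 19, Col11a2 was above 1 FPKM in too few libraries to be tested, so 18 were tested.

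**Figure D1:**
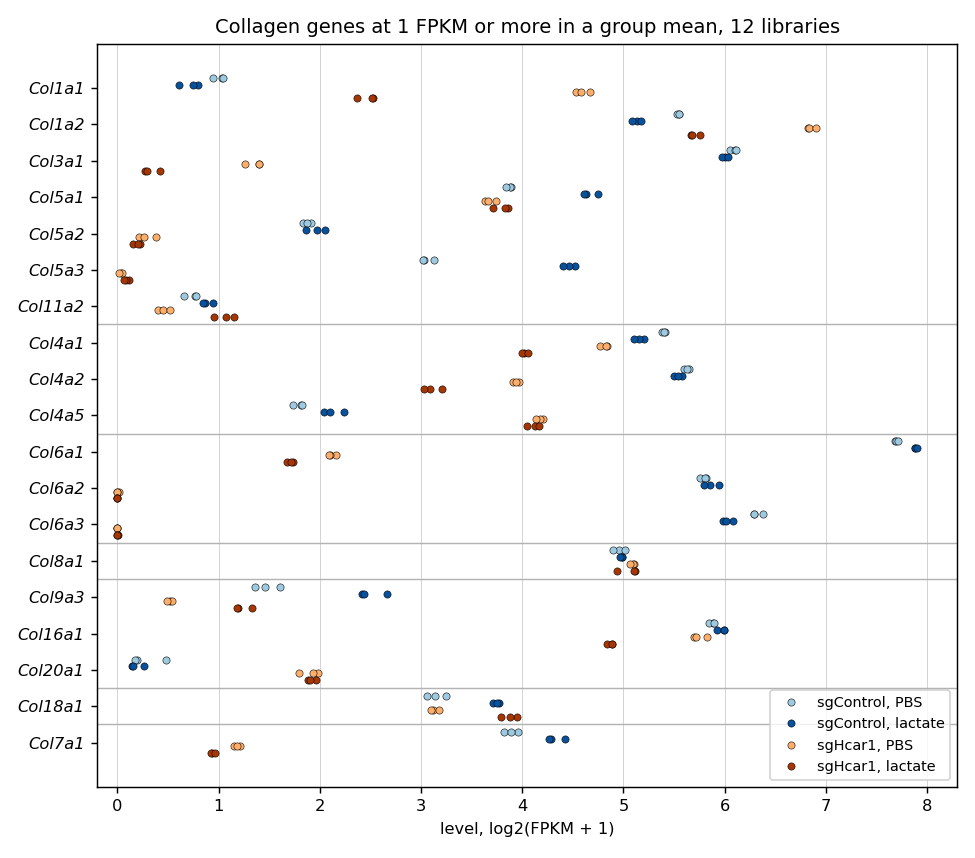
Level of the 19 collagen genes that reached a mean of 1 FPKM in a group, as log2(FPKM + 1) on the horizontal axis, with 1 point per library and colours for the 4 groups. Horizontal lines separate the structural classes. The 6 sgHcar1 libraries sit near 0 for Col6a2 and Col6a3 and to the right of the 6 sgControl libraries for Col1a1, Col1a2, Col4a5 and Col20a1.

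The summed collagen level was lower in sgHcar1 cells, and its make-up differed. All 44 genes together came to 682 ± 5.36 FPKM (SD, n = 3) in sgControl in PBS, 719 ± 11.9 in sgControl in lactate, 312 ± 5.30 in sgHcar1 in PBS and 192 ± 4.02 in sgHcar1 in lactate. No library of 1 guide reached the range of the other. As a percentage of all FPKM of a library, these sums were 0.211, 0.230, 0.0853 and 0.0461. In this bulk RNA, fewer cells that express a gene and less of its RNA per cell cannot be told apart. The type VI chains made up 49.8% of the collagen FPKM of sgControl cells in PBS and 49.8% in lactate, against 1.08% and 1.21% in sgHcar1 cells. Fibril-forming chains took 20.3% and 20.5% in sgControl cells, and 48.6% in PBS and 36.5% in lactate in sgHcar1 cells. The share of type IV was 13.5% and 11.6% in sgControl cells and 18.7% and 20.7% in sgHcar1 cells. The single most abundant gene was Col6a1 in sgControl cells, with 30.2% of collagen FPKM in PBS and 32.8% in lactate. In sgHcar1 cells it was Col1a2, with 36.7% and 26.6%.

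**Figure D2:**
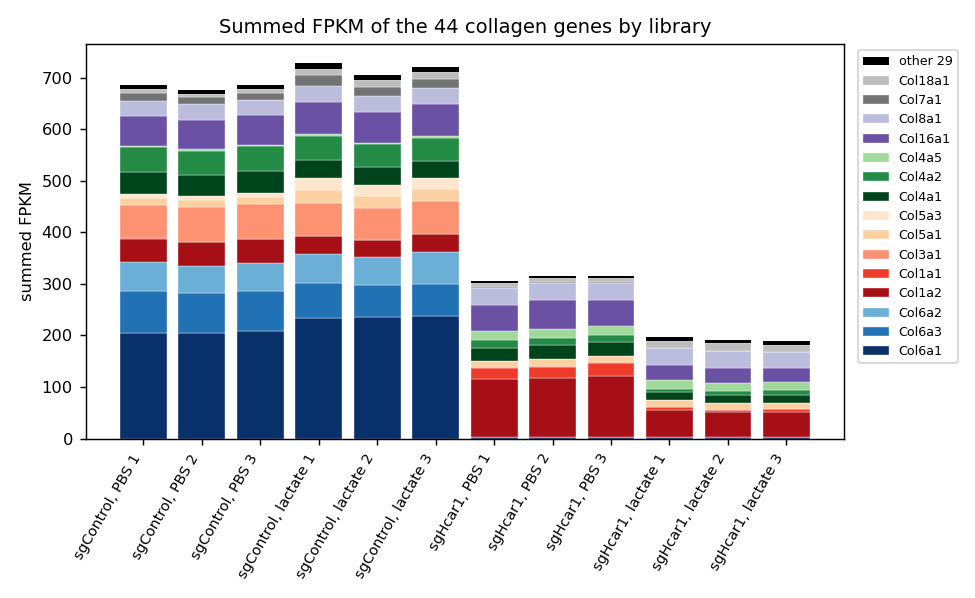
Summed FPKM of the 44 collagen genes in each of the 12 libraries, stacked by gene, with the 29 lowest genes added together. Type VI chains (blue) fill the lower part of each sgControl bar and are barely visible in the sgHcar1 bars, where Col1a2 (dark red) is the largest piece, and the 3 sgHcar1 lactate bars are the shortest.

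The type VI genes had the widest gaps between guides on the log2(FPKM + 1) scale, although Col5a3 was lower by a larger fold of FPKM than Col6a1. Their chains assemble as a heterotrimer of alpha 1, alpha 2 and another chain, most often alpha 3. On RefSeq's GRCm38.p6 annotation, Col6a1 (chr10:76708792-76726044, minus strand) and Col6a2 (chr10:76595756-76623630, minus strand) are neighbours 85.2 kb apart, and Col6a3 (chr1:90766860-90844001, minus strand) lies on another chromosome. The sequences before their start sites are shown with those of Col3a1 (chr1:45311538-45349706, plus strand), another abundant gene that was lower in sgHcar1 cells, and Col1a2 (chr6:4505618-4541543, plus strand), which was higher there. They are taken from RefSeq's promoter table, 5′ to 3′ on the strand of the gene, from the 250 bases before the start in that table. Bases inside RefSeq's span of the gene or in a GENCODE exon are left out, so that the stretches of Col6a1 and Col1a2, for which GENCODE places an exon before RefSeq's start, end further upstream. Capitals mark the letters of 3 patterns, each searched on both strands. The TATA box was read as TATAAA on either strand. The CCAAT box was read as CCAAT and the GC box as GGGCGG in the same way.
Col6a1 chr10:76726169-76726294 (minus): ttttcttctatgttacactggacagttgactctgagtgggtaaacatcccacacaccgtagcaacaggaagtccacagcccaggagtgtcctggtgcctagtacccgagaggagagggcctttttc
Col6a2 chr10:76623631-76623880 (minus): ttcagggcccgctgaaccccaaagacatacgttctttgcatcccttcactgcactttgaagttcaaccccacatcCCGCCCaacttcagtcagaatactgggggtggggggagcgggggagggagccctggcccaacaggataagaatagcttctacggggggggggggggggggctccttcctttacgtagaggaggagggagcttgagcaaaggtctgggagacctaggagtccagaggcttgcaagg
Col6a3 chr1:90844002-90844221 (minus): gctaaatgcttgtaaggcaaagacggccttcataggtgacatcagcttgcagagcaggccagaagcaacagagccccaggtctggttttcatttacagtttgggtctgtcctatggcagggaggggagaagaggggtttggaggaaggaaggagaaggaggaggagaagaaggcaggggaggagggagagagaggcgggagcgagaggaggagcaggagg
Col3a1 chr1:45311288-45311537 (plus): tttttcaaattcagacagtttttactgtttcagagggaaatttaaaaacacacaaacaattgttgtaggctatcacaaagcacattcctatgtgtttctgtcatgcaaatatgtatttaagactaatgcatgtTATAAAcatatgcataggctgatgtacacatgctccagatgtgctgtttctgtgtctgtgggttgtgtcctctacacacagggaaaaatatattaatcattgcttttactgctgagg
Col1a2 chr6:4505370-4505492 (plus): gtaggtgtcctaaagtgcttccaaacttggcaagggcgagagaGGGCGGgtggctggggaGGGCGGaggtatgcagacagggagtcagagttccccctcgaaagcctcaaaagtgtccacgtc

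The 5 sequences had no letter pattern in common among those searched. In the full 250 bases, Col6a2 held 1 GC box, Col3a1 held 1 TATA box 117 bases before the start, and Col1a2 held 2 GC boxes and a CCAAT box, the last in a stretch within an annotated exon that is not printed. Col6a1 and Col6a3 held none of these patterns. Of 32851 promoter entries, 12.4% held a TATA box in the same length, 33.8% a CCAAT box and 32.7% a GC box. The number of CpG pairs in the 250 bases was 3 for Col6a1, 6 for Col6a2, 3 for Col6a3, 0 for Col3a1 and 11 for Col1a2, and the median of all entries was 6. Such matches describe the letters alone.

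Col6a1 was at 204, 206 and 209 FPKM in the sgControl PBS libraries and at 235, 235 and 237 in sgControl in lactate. In sgHcar1 cells it was at 3.48, 3.28 and 3.27 FPKM in PBS and at 2.34, 2.20 and 2.28 in lactate. Every sgHcar1 library was below every sgControl library, and mean FPKM was 61.6-fold lower in PBS and 104-fold lower in lactate. Col6a2 was at 55.1, 53.0 and 55.0 FPKM in sgControl in PBS and at 57.1, 54.5 and 60.6 in lactate. It was listed at 0 in 5 of the 6 sgHcar1 libraries, and at 0.00773 FPKM in 1 PBS library. Col6a3 was at 82.3, 77.1 and 77.1 FPKM in sgControl in PBS and at 66.7, 62.4 and 63.6 in lactate, and it too was listed at 0 in 5 sgHcar1 libraries, with 0.00599 FPKM in 1 lactate library. The 3 genes passed the test for the guide in PBS with differences of -5.58 (SE 0.03) for Col6a1, -5.79 (SE 0.04) for Col6a2 and -6.32 (SE 0.04) for Col6a3. For Col6a2 and Col6a3 the size of the difference is set by the added 1, and no fold is given. Col6a4, Col6a5 and Col6a6, the chains that can take the place of alpha 3, stayed low: the highest library of the 3 genes was at 0.743 FPKM.

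Lactate moved the type VI genes little where they were expressed. In sgControl cells Col6a1 rose by 0.19 (SE 0.03, limma adjusted p = 7.46e-05), Col6a3 fell by 0.29 (SE 0.04, adjusted p = 3.74e-05) and Col6a2 differed by 0.08 (SE 0.04, adjusted p = 0.126). The ratio of Col6a1 to Col6a3 was 2.48 to 2.70 in PBS and 3.52 to 3.77 in lactate, and that of Col6a3 to Col6a2 was 1.40 to 1.49 in PBS and 1.05 to 1.17 in lactate. In sgHcar1 cells Col6a1 fell by 0.41 (SE 0.03), a 1.47-fold lower FPKM, and the difference between the 2 lactate effects was -0.60 (SE 0.04, adjusted p = 3.53e-07). For Col6a3 that difference was 0.29 (SE 0.05), but it compares a fall in sgControl cells with libraries that were at or near 0 under both treatments.

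Col18a1 (chr10:77052178-77166530, minus strand), which encodes the chain whose end fragment is endostatin, lies 326 kb from Col6a1 and did not follow it. It was at 8.47, 7.32 and 7.78 FPKM in sgControl in PBS and at 7.67, 8.02 and 7.58 in sgHcar1 in PBS, so the guides overlapped. With lactate it was at 12.6, 12.1 and 12.5 FPKM in sgControl cells and at 12.8, 14.5 and 13.7 in sgHcar1 cells. The rise with lactate was 0.60 (SE 0.05) in sgControl cells and 0.74 (SE 0.05) in sgHcar1 cells, and the difference between them was 0.15 (SE 0.08, adjusted p = 0.124). That difference was -0.075 after scaling each library to the same sum of FPKM, and 0.19 (adjusted p = 0.0497) without replicate 2 of sgControl in PBS; over the alternatives the adjusted p was 0.0497 to 0.456.

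Among fibril-forming chains, type I was higher in sgHcar1 cells, and type III and the type V chains Col5a2 and Col5a3 were far lower. The type V chain Col5a1 was 1.16-fold lower in PBS and 1.89-fold lower in lactate. Type I is the main fibre of skin, bone and scar and is made of alpha 1 and alpha 2 chains, for which Col1a1 (chr11:94936224-94953042, plus strand) and Col1a2 code. Col1a1 was at 0.924, 1.05 and 1.07 FPKM in sgControl in PBS and at 0.732, 0.679 and 0.523 in sgControl in lactate. In sgHcar1 cells it was at 22.1, 23.0 and 24.4 FPKM in PBS and at 4.77, 4.17 and 4.73 in lactate. The 4 groups did not overlap. Mean FPKM was 22.8-fold higher with sgHcar1 in PBS (3.58, SE 0.07) and 7.07-fold higher in lactate (1.76, SE 0.07).

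Col1a2 was more abundant than Col1a1 in every library. It was at 45.7, 45.04 and 45.8 FPKM in sgControl in PBS, 34.2, 32.9 and 35.1 in sgControl in lactate, 112, 113 and 118 in sgHcar1 in PBS, and 53.2, 49.7 and 50.2 in sgHcar1 in lactate. Its difference between guides, 1.31 (SE 0.03) in PBS and 0.57 (SE 0.03) in lactate, was smaller than that of Col1a1. The ratio of Col1a2 to Col1a1 was 42.9 to 49.4 in sgControl in PBS and 46.7 to 67.1 in sgControl in lactate. It was 4.85 to 5.07 in sgHcar1 in PBS and 10.6 to 11.9 in sgHcar1 in lactate. The collagen I trimer of most tissues holds 2 alpha 1 chains for 1 alpha 2 chain, and no library had as much Col1a1 as Col1a2 RNA.

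Type III collagen, which is co-assembled with type I in soft tissues, is coded by Col3a1 alone. Col3a1 was at 65.4, 67.8 and 68.2 FPKM in sgControl in PBS and at 63.1, 61.8 and 64.3 in sgControl in lactate. In sgHcar1 cells it was at 1.39, 1.64 and 1.63 FPKM in PBS and at 0.336, 0.210 and 0.223 in lactate. Among collagens only Col6a1 and Col6a3 had a higher mean in sgControl cells, while in sgHcar1 cells Col3a1 was below Col6a1 and Col20a1 under both treatments. Mean FPKM was 43.2-fold lower with sgHcar1 in PBS (-4.74, SE 0.05) and 246-fold lower in lactate (-5.67, SE 0.05). Col5a2 (chr1:45374331-45503282, minus strand), 24.6 kb from Col3a1 and transcribed towards it, was lower as well, at 2.56 to 2.77 FPKM in sgControl in PBS, 2.63 to 3.16 in sgControl in lactate, 0.161 to 0.302 in sgHcar1 in PBS and 0.112 to 0.170 in sgHcar1 in lactate.

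Type V collagen sits inside type I fibres and limits their width, and its 3 genes differed. Col5a3 was at 7.19, 7.11 and 7.77 FPKM in sgControl in PBS and at 22.0, 21.1 and 20.2 in sgControl in lactate, the largest rise of a collagen with lactate (1.40, SE 0.05). In sgHcar1 cells it was at 0.0283, 0.0287 and 0.00887 FPKM in PBS and at 0.0842, 0.0626 and 0.0444 in lactate. It was 335-fold lower with sgHcar1 in PBS and 331-fold lower in lactate. Lactate raised mean FPKM 2.87-fold in sgControl cells, and mean FPKM in sgHcar1 cells was 2.90-fold higher in lactate, with no overlap of libraries. On the log2(FPKM + 1) scale the second of these was 0.06 (SE 0.05, adjusted p = 0.317), and the difference between the 2 lactate effects was -1.34 (SE 0.07), although the folds in FPKM were nearly equal. With a pseudocount of 0.1 in place of 1, the lactate effect on Col5a3 in sgHcar1 cells was 0.42 (adjusted p = 0.0066).

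Col5a1, the chain present in most type V molecules, was similar in 3 of the groups. It was at 13.8, 13.7 and 13.3 FPKM in sgControl in PBS, 25.9, 23.7 and 23.5 in sgControl in lactate, 11.4, 12.4 and 11.6 in sgHcar1 in PBS, and 13.5, 13.2 and 12.1 in sgHcar1 in lactate. The sgControl lactate libraries stood above all others. The rise with lactate was 0.79 (SE 0.05) in sgControl cells. In sgHcar1 cells it was 0.12 (SE 0.05, adjusted p = 0.0502), just outside the threshold, and -0.05 after scaling each library to the same sum of FPKM. Col11a2, a chain of cartilage fibrils, was below 1 FPKM on average in 3 groups and at 1.09 ± 0.147 FPKM (SD, n = 3) in sgHcar1 in lactate, against 0.372 ± 0.0571 in sgHcar1 in PBS.

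**Figure D3:**
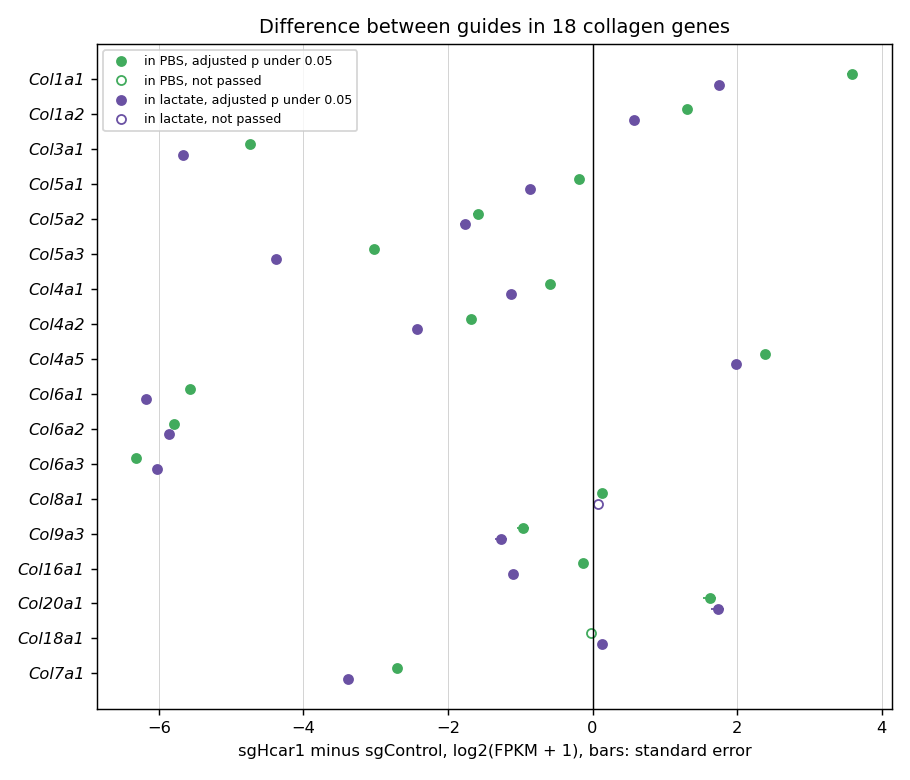
Difference between guides, sgHcar1 minus sgControl, in log2(FPKM + 1) for the 18 collagen genes tested, in PBS (green) and in lactate (purple), with standard errors mostly smaller than the points. Filled points passed an adjusted p under 0.05. Type VI chains, Col3a1 and Col5a3 lie furthest to the left and Col1a1, Col4a5 and Col20a1 furthest to the right.

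Across the 18 tested collagen genes, 17 passed the test between guides in PBS, 5 higher and 12 lower in sgHcar1 cells, where 76.7% of all genes tested passed (38.2% higher and 38.4% lower). In lactate 17 passed, 5 higher and 12 lower, where 82.2% of all genes did (41.3% higher and 40.9% lower). Since most genes passed, the count says little about the collagens. By size on the log2(FPKM + 1) scale, 12 of the 18 passed beyond a 2-fold difference in PBS, where 20.2% of all genes did. In lactate 14 did, where 27.4% of all genes did. The median absolute difference was 1.65 for the collagens and 0.46 for all genes in PBS, and 1.76 and 0.58 in lactate. The median signed difference was -0.77 for the collagens and 0.01 for all genes in PBS, and -1.20 and 0.01 in lactate. Col5a2, Col5a3, Col6a2, Col6a3 and Col20a1 were among the tested genes only through the 6 libraries of 1 guide, so they had to differ, and these counts are a description. After scaling each library to the same sum of FPKM the median of all genes shifted to -0.16 in PBS and -0.35 in lactate. Of the calls over all genes, 38.2% and 32.0% were then higher, against 49.9% and 50.3% before. That sum was 1000000, above that of any library, so the scaling also raised values before the filter and the added 1.

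Type IV genes come in head-to-head pairs that share a start region, and they moved apart. Col4a1 (chr8:11198423-11312889, minus strand) and Col4a2 (chr8:11312805-11449287, plus strand) code for the chains of the common basement membrane trimer, and their annotated ends overlap by 85 bases. Col4a1 was at 41.6, 40.6 and 41.2 FPKM in sgControl in PBS, 35.8, 34.5 and 33.3 in sgControl in lactate, 26.2, 27.7 and 27.4 in sgHcar1 in PBS, and 15.2, 14.9 and 15.6 in sgHcar1 in lactate. Col4a2 was at 49.1, 47.3 and 48.6 FPKM, 46.6, 44.3 and 45.4, 14.0, 14.7 and 14.3, and 7.53, 7.18 and 8.26 in the same order of groups. Both were lower in every sgHcar1 library than in any sgControl library, and Col4a2 by more. In PBS the difference between guides was -0.59 (SE 0.03) for Col4a1 and -1.69 (SE 0.04) for Col4a2. The ratio of Col4a1 to Col4a2 was 0.847 to 0.858 in sgControl in PBS, 0.735 to 0.780 in sgControl in lactate, 1.87 to 1.92 in sgHcar1 in PBS and 1.89 to 2.08 in sgHcar1 in lactate.

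Col4a5 (chrX:141475370-141689236, plus strand), a chain of the basement membranes of kidney and of several epithelia, went the other way. It was at 2.33, 2.52 and 2.54 FPKM in sgControl in PBS, 3.71, 3.13 and 3.28 in sgControl in lactate, 17.5, 17.0 and 16.6 in sgHcar1 in PBS, and 16.4, 16.9 and 15.5 in sgHcar1 in lactate. It was thus 6.92-fold higher with sgHcar1 in PBS (2.38, SE 0.05) and 4.83-fold higher in lactate (1.98, SE 0.05). Per length, Col4a5 was at 0.0510 of Col4a2 in sgControl in PBS and at 1.19 of it in sgHcar1 in PBS, and in sgHcar1 in lactate it was at 2.14. Its partner Col4a6, whose start lies 1.3 kb away on the other strand, was below 0.01 FPKM in every library.

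**Figure D4:**
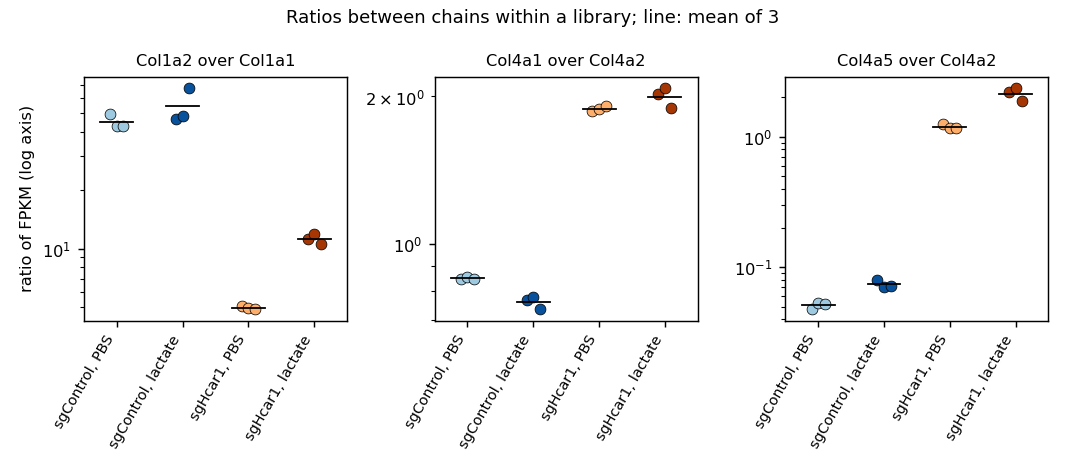
Ratio of FPKM between 2 chains within each library, on log axes, for Col1a2 over Col1a1, Col4a1 over Col4a2 and Col4a5 over Col4a2, with points for libraries and a line at the mean of 3. The sgHcar1 libraries lie below the sgControl libraries for Col1a2 over Col1a1 (4.85 to 11.9 against 42.9 to 67.1) and above them for both type IV ratios.

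Of the 18 tested genes, Col8a1 had the smallest ratio of the highest to the lowest group mean. Col8a1, a short-chain collagen of the vessel wall and of the Descemet membrane of the eye, was at 28.7 to 31.4 FPKM in sgControl in PBS, 30.2 to 30.8 in sgControl in lactate, 32.5 to 33.4 in sgHcar1 in PBS and 29.6 to 33.5 in sgHcar1 in lactate. Its difference between guides in PBS was 0.13 (SE 0.05, adjusted p = 0.0231), and it turned to -0.04 after scaling to the same sum. Its lactate effects were 0.02 and -0.04 in the 2 guides, neither past the threshold. The effect in sgHcar1 cells passed after scaling to the same sum (-0.22, adjusted p = 0.00346) and after quantile normalization (-0.18, adjusted p = 0.00492), with up to 0.694 over the alternatives, and so did the difference between the effects (-0.29 and -0.19). Col8a1 made up 4.40% of collagen FPKM in sgControl in PBS and 16.7% in sgHcar1 in lactate. The summed collagen level was 682 FPKM in the first of these groups and 192 in the second.

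Col7a1, the anchoring fibril gene, was at 14.5, 13.1 and 13.8 FPKM in sgControl in PBS, 20.5, 18.5 and 18.3 in sgControl in lactate, 1.32, 1.23 and 1.27 in sgHcar1 in PBS, and 0.906, 0.904 and 0.955 in sgHcar1 in lactate. All 4 groups were apart. Mean FPKM was 10.8-fold lower with sgHcar1 in PBS and 20.7-fold lower in lactate.

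The FACIT genes did not move as a class. Col16a1, an adhesive FACIT, was at 57.9, 56.5 and 58.3 FPKM in sgControl in PBS, 62.9, 59.6 and 62.8 in sgControl in lactate, 50.9, 55.5 and 51.6 in sgHcar1 in PBS, and 28.7, 27.5 and 28.5 in sgHcar1 in lactate. The last group stood furthest apart. The other 3 did not overlap either, and the guide difference in PBS was -0.13 (SE 0.04, limma adjusted p = 0.00776). Col9a3, a chain of cartilage type IX, was at 1.57 to 2.05 FPKM in sgControl in PBS, 4.33 to 5.34 in sgControl in lactate, 0.408 to 0.456 in sgHcar1 in PBS and 1.27 to 1.51 in sgHcar1 in lactate. It rose with lactate 2.62-fold in mean FPKM in sgControl cells and 3.14-fold in sgHcar1 cells. Col9a1 and Col9a2, which code for the other chains of type IX, were at 0 or below 0.05 FPKM in every library. Col20a1, 361 kb from Col9a3 on chromosome 2, was at 0.129 to 0.392 FPKM in sgControl in PBS and at 0.104 to 0.199 in lactate, and at 2.46 to 2.94 FPKM in sgHcar1 in PBS and 2.70 to 2.90 in lactate, so it was higher where Col9a3 was lower.

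With lactate, 12 of the 18 tested collagen genes passed in sgControl cells, 8 higher and 4 lower with lactate, where 65.7% of all genes tested passed (33.9% higher and 31.9% lower). In sgHcar1 cells 10 passed, 2 higher and 8 lower, where 72.2% of all genes did (36.8% higher and 35.4% lower). The first count is near the share of all genes and the second is below it. However, Col5a2, Col5a3, Col6a2 and Col6a3 were tested only through sgControl libraries and were at 0.302 FPKM or less in every sgHcar1 library. With the added 1 they could hardly pass there, so the second count is a description. Col20a1 was in turn tested only through sgHcar1 libraries. Past a 2-fold change on the log2(FPKM + 1) scale there were 2 collagens in sgControl cells, where 7.21% of all genes were. There were 3 in sgHcar1 cells, all lower, where 15% of all genes were. The medians were 0.08 in sgControl cells and -0.08 in sgHcar1 cells, with 0.00 over all genes in each. In mean FPKM, however, Col9a3 was 3.14-fold higher with lactate in sgHcar1 cells, Col5a3 2.90-fold and the untested Col11a2 2.93-fold. The 2 lactate effects share no libraries. By the test on log2(FPKM + 1), Col1a1, Col1a2 and Col4a1 fell under both guides, and Col9a3 and Col18a1 rose under both. Col5a3 was higher with lactate in FPKM under both guides as well, as described above. Col6a1, Col7a1 and Col16a1 moved in opposite directions, higher with lactate under sgControl and lower under sgHcar1, although the rise of Col16a1 was 0.10 (SE 0.04, adjusted p = 0.032).

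The difference between the lactate effects, sgHcar1 minus sgControl, passed for 13 of the 18 genes, 12 of them lower and 1 higher, where 59.1% of all genes passed (28.7% lower and 30.4% higher). Its median was -0.57 over the collagens and 0.01 over all genes. On the log2(FPKM + 1) scale the difference was past 2-fold for 2 collagens, where 7.78% of all genes were. On this scale Col1a1 had the largest: it fell by 0.29 (SE 0.07) in sgControl cells and by 2.12 (SE 0.07) in sgHcar1 cells, with a difference of -1.83 (SE 0.09, adjusted p = 8.46e-08). In FPKM this was a 1.57-fold fall in sgControl cells and a 5.08-fold fall in sgHcar1 cells. Col1a2 fell by 0.41 (SE 0.03) and by 1.15 (SE 0.03). Col3a1 differed by -0.09 (SE 0.05, limma adjusted p = 0.142) with lactate in sgControl cells and fell by 1.02 (SE 0.05) in sgHcar1 cells. Its mean FPKM was 1.06-fold lower in the first and 6.07-fold lower in the second. In FPKM its 2 lactate effects thus lay further apart than those of Col1a1, and the added 1 made its difference smaller.

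Col4a1, Col4a2, Col4a5, Col7a1 and Col16a1 also had a lactate effect that was more negative in sgHcar1 cells. Col4a1 fell by 0.25 (SE 0.03) in sgControl cells and by 0.79 (SE 0.03) in sgHcar1 cells, and Col4a2 differed by -0.09 (SE 0.04, adjusted p = 0.0966) in the first and fell by 0.83 (SE 0.04) in the second. Col16a1 fell by 0.88 (SE 0.04) in sgHcar1 cells, and its difference between the guides was -0.98 (SE 0.05). Col7a1 rose by 0.44 (SE 0.05) in sgControl cells and fell by 0.24 (SE 0.05) in sgHcar1 cells, which is 1.38-fold up and 1.38-fold down in mean FPKM. Col4a5 rose by 0.34 (SE 0.05) in sgControl cells and differed by -0.06 (SE 0.05, adjusted p = 0.313) in sgHcar1 cells, a value that became -0.25 (adjusted p = 0.00478) after scaling to the same sum and -0.16 (adjusted p = 0.0166) after quantile normalization (up to 0.677 over the alternatives). For Col5a3, Col6a3 and Col9a3 the sgHcar1 libraries were so low that the sign or size of the difference is set by the added 1. For Col9a3 it was -0.31 (SE 0.12, adjusted p = 0.0437) with a pseudocount of 1 and 0.11 with a pseudocount of 0.1. Scaling to the same sum of FPKM moved the median of all genes in this contrast to -0.18, and 31.0% of the calls over all genes were then higher, against 51.4% before.

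**Figure D5:**
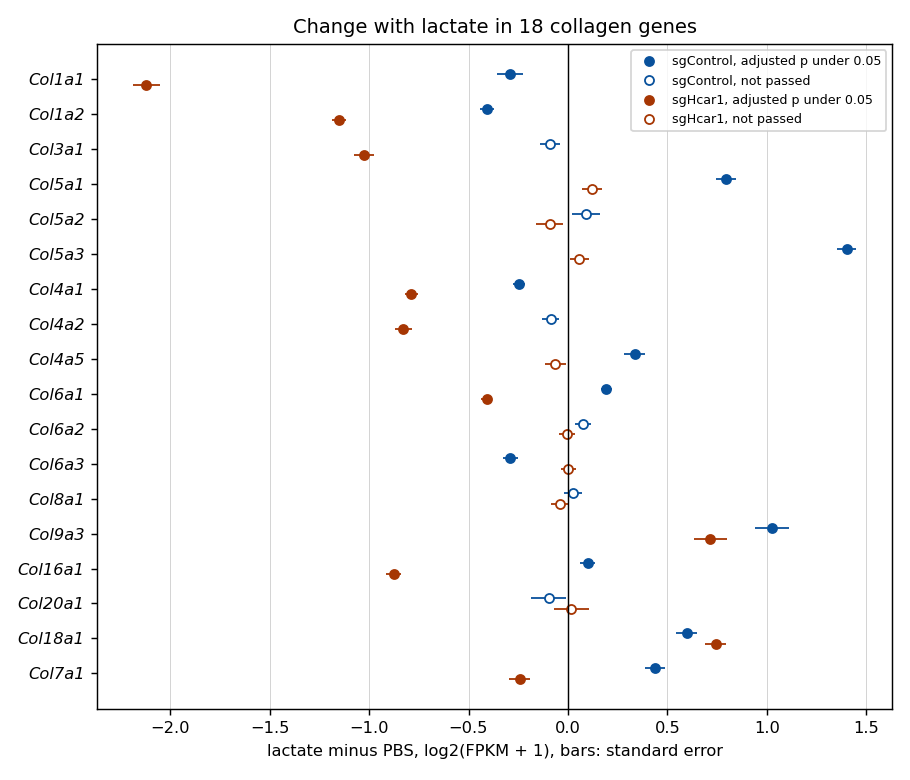
Change with lactate, lactate minus PBS in log2(FPKM + 1), for the 18 collagen genes tested, in sgControl (blue) and sgHcar1 (red-brown) cells, with standard errors. Filled points passed an adjusted p under 0.05. The red-brown points lie to the left of the blue ones for 15 of the 18 genes, furthest for Col1a1, and to the right for Col6a3, Col18a1 and Col20a1.

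Genes that make, export and process collagen were read from lists chosen for this purpose. In these and later lists, a gene below 1 FPKM under 1 guide was tested only through the other. The counts between guides are therefore a description. Prolyl and lysyl hydroxylases and their partners modify the chains before they fold. Of 14 tested, 11 fell and 1 rose with lactate in sgControl cells, where 31.9% of all genes fell and 33.9% rose. In sgHcar1 cells 9 fell and 2 rose, where 35.4% of all genes fell and 36.8% rose. The medians were -0.41 and -0.52, against 0.00 over all genes in each. Plod2, a lysyl hydroxylase for cross-link sites, fell by 1.09 (SE 0.06) and 1.08 (SE 0.06). Crtap, a partner of prolyl 3-hydroxylase, fell by 0.80 (SE 0.03) and 1.5 (SE 0.03). P3h1, the enzyme of that complex, rose by 0.59 (SE 0.05) and 1.08 (SE 0.05).

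Of 11 tested genes for folding and export, 8 rose and 2 fell with lactate in sgHcar1 cells, where 36.8% of all genes rose and 35.4% fell. In sgControl cells 5 rose and 3 fell, where 33.9% of all genes rose and 31.9% fell. The medians were 0.46 in sgHcar1 cells and 0.07 in sgControl cells, against 0.00 over all genes in each. Sec24d, a coat protein of the vesicles that carry procollagen, was at 24.1 ± 0.592 FPKM (SD, n = 3) and 56.2 ± 1.80 in sgControl in PBS and lactate, and at 15.9 ± 0.340 and 113 ± 4.12 in sgHcar1 cells. Serpinh1, the collagen chaperone HSP47, rose by 0.61 (SE 0.03) in sgControl cells and by 0.86 (SE 0.03) in sgHcar1 cells. Between guides in PBS 2 of the 11 were higher and 8 lower in sgHcar1 cells, where 38.2% of all genes were higher and 38.4% lower. Sparc, a secreted collagen-binding protein, was at 615 ± 7.98 FPKM in sgControl in PBS, 476 ± 15.6 in sgControl in lactate, 79.0 ± 1.48 in sgHcar1 in PBS and 26.5 ± 1.47 in sgHcar1 in lactate.

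Of 9 tested genes for procollagen processing and cross-linking, 2 were higher and 6 lower with sgHcar1 in PBS, and 2 were higher and 7 lower in lactate. Over all genes 38.2% were higher and 38.4% lower in PBS, and 41.3% and 40.9% in lactate. Pcolce2, Adamts2, Loxl1 and Loxl2 reached 1 FPKM only in sgControl libraries. They were tested only through that guide, so they had to differ, and these counts are a description. Loxl1, a lysyl oxidase of elastic tissue, was at 13.1 ± 0.777 FPKM in sgControl in PBS and 0.135 ± 0.0801 in sgHcar1 in PBS. Loxl3, another lysyl oxidase, was higher with sgHcar1 in PBS by 1.42 (SE 0.06). Pcolce, an enhancer of procollagen C-proteinase, fell with lactate by 0.60 (SE 0.03) in sgControl cells and by 0.89 (SE 0.03) in sgHcar1 cells. With lactate the list had 2 genes higher and 5 lower in sgControl cells, where 33.9% of all genes were higher and 31.9% lower. In sgHcar1 cells none was higher and 5 were lower, where 72.2% of all genes passed (36.8% higher and 35.4% lower). Pcolce2, Adamts2, Loxl1 and Loxl2 were at 0.215 FPKM or less in the sgHcar1 libraries and could hardly pass there.

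Of 5 tested collagen receptors, 4 were lower and 1 higher with sgHcar1 in PBS, and 5 were lower in lactate, where 76.7% and 82.2% of all genes passed. Mrc2, an endocytic collagen receptor, was at 36.8 ± 1.75 FPKM in sgControl in PBS and 5.22 ± 0.292 in sgHcar1 in PBS. Ddr2, a receptor kinase for fibrillar collagen, rose with lactate by 1.31 (SE 0.04) in sgControl cells and by 0.77 (SE 0.04) in sgHcar1 cells. Of 9 tested genes for collagen breakdown and its inhibitors, 6 were lower and 2 higher with sgHcar1 in PBS, and over all genes 38.4% were lower and 38.2% higher. Mmp2, Mmp9 and Timp3 here, and Itga10 among the receptors, reached 1 FPKM only in sgControl libraries. Mmp13 and Ctsk did so only in sgHcar1 in lactate. These genes were tested only through 1 guide, so both counts are a description. Mmp2, a gelatinase, was at 301 ± 6.39 FPKM in sgControl in PBS, and its mean in sgHcar1 in PBS was 0.00714 FPKM. Mmp14, a membrane collagenase, rose by 0.28 (SE 0.04) with lactate in sgControl cells and fell by 1.59 (SE 0.04) in sgHcar1 cells.

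Of 12 tested basement membrane partners of type IV, 4 were higher and 8 lower with sgHcar1 in PBS, where 38.2% of all genes were higher and 38.4% lower. Nid1, which links laminin to type IV, was at 0.0516 ± 0.0121 FPKM in sgControl in PBS and 12.4 ± 0.524 in sgHcar1 in PBS. Hspg2, the proteoglycan perlecan, was at 98.6 ± 6.70 and 30.1 ± 2.97 FPKM. Pxdn, the peroxidase that cross-links type IV, fell with lactate by 0.94 (SE 0.06) in sgControl cells and by 1.64 (SE 0.06) in sgHcar1 cells. Of 18 tested genes of the TGF-beta pathway, a main inducer of fibrillar collagens, 6 were higher and 9 lower with sgHcar1 in PBS. The shares over all genes in that comparison were 38.2% higher and 38.4% lower. With lactate 8 rose and 7 fell in sgControl cells, and 10 rose and 6 fell in sgHcar1 cells, where 65.7% and 72.2% of all genes passed. Tgfbi, a TGF-beta target, was at 168 ± 0.284 FPKM in sgControl in PBS and listed at 0 in the 3 sgHcar1 PBS libraries.

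Cell type markers also differed between the guides. Of 14 fibroblast markers 9 reached a mean of 1 FPKM in a group. Of 8 tested, 1 was higher and 5 were lower with sgHcar1 in PBS, where 38.2% of all genes were higher and 38.4% lower. Their summed level was 988 to 1014 FPKM in sgControl in PBS, 855 to 888 in sgControl in lactate, 985 to 1008 in sgHcar1 in PBS and 522 to 582 in sgHcar1 in lactate, most of it Vim. Lum and Thy1 were listed at 0 throughout. Fbn1, the fibrillin gene, was at 66.1 ± 2.76 FPKM in sgControl in PBS and 0.299 ± 0.0542 in sgHcar1 in PBS. That is the direction of Col3a1 and the type VI genes and opposite to that of Col1a1 and Col1a2. Of 12 epithelial markers 4 reached 1 FPKM, with sums of 4.16 to 4.52 FPKM in sgControl in PBS, 6.14 to 6.71 in sgControl in lactate, 46.1 to 49.3 in sgHcar1 in PBS and 111 to 115 in sgHcar1 in lactate. Krt18, a simple-epithelium keratin, carried nearly all of the sgHcar1 sums, and Cdh1 was at 1.72 ± 0.210 FPKM in sgControl in PBS and listed at 0 in all sgHcar1 libraries. The part of these markers in the collagen differences was not tested. Leukocyte markers summed to at most 6.94 FPKM in any library, nearly all of it Cd68, with Ptprc at or below 0.0063, and endothelial markers to at most 1.94 FPKM.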

How the data were processed

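The authors deposited 1 table of FPKM per gene and library for 12 libraries, per the file headers. RNA was extracted with Trizol and 1 µg of total RNA went into TruSeq libraries, per the labels' protocols. HISAT2 2.0.5, featureCounts 1.5.0-p3 and GRCm38 are named in the submitters' processing notes, and filters and strand setting are not given in the sources used here. The deposited gene identifiers of the collagens begin with MGP_C57BL6NJ, so their gene models may differ from the RefSeq ones used for positions. Column letters gave the groups, those of sgHcar1 by elimination. Values were tested as log2(FPKM + 1) with limma 3.58.1 (R 4.3.3): 1 mean per group, intensity trend, two-sided, genes with at least 1 FPKM in 3 or more libraries, Benjamini-Hochberg adjustment within each of 5 contrasts, threshold 0.05. The model was checked on simulated data. Collagens with a group mean of at least 1 FPKM are described singly, and from each list up to 4 genes per contrast that passed, taken by the size of their change, could be named, along with defining markers near 0. The levels of Tgfbi, and which listed genes were given in full, were chosen after their values were seen. The members, classes and lists were chosen with earlier results of these data known. Replicate numbers did not pair the libraries: same-numbered libraries' deviations from group means correlated at -0.0505 to 0.085. Positions and promoters came from RefSeq (GRCm38.p6), with 44 and 35 of 44 collagens matched by symbol. Alternatives were a pseudocount of 0.1, no filter, a stricter filter (mean of 5 FPKM or more), scaling by median ratio, same-sum (1000000) and quantile scaling, no trend, a replicate block, array weights, only the groups compared, and leaving out each library. The same-sum scaling also raised all values before the filter and the added 1 were applied, and this part was not tested separately. Summaries and figures used Python 3.11.15, pandas 2.3.3, numpy 2.4.6 and matplotlib 3.10.9.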

Additional observations from a re-analysis of the deposited data

Results flagged for a closer look

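In all, 13 of the 18 tested collagen genes had lactate effects that differed between the guides by a test of the difference itself (limma, sgHcar1 minus sgControl, adjusted p under 0.05, on log2(FPKM + 1)), where 59.1% of all genes did. For 3 of them, Col5a3, Col6a3 and Col9a3, low levels in sgHcar1 cells let the added 1 set the sign or size of the difference. Col5a3 had -1.34 although its FPKM was 2.87-fold higher with lactate in sgControl cells and 2.90-fold higher in sgHcar1 cells. Col9a3 had -0.31, and 0.11 with a pseudocount of 0.1. Col6a3, near 0 in sgHcar1 cells, had 0.29. Of the other 10, Col1a1 had the largest difference on the log2(FPKM + 1) scale, at -1.83. Among the other fibril-forming chains it was -0.94 for Col3a1, -0.74 for Col1a2 and -0.67 for Col5a1. In the basement membrane network it was -0.74 for Col4a2, -0.54 for Col4a1 and -0.40 for Col4a5. The remaining values were -0.98 for Col16a1, -0.68 for Col7a1 and -0.60 for Col6a1. For Col3a1 the added 1 made the difference smaller: mean FPKM was 6.07-fold lower with lactate in sgHcar1 cells and 1.06-fold lower in sgControl cells. For Col1a1 these folds were 5.08 and 1.57.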

How the results depend on the processing

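Of the collagen results under alternatives that kept all libraries, 834 kept their direction and side of the threshold, 17 newly passed, 7 no longer passed and 9 changed sign. With 1 library left out these numbers were 1041, 7, 24 and 8. Without the filter on low values, more collagens entered the test: 5 rather than 2 were higher with lactate in sgHcar1 cells, 5 rather than 1 in the difference between lactate effects, and 9 rather than 5 between guides in PBS and in lactate. Higher with lactate in sgHcar1 cells were 4 with a pseudocount of 0.1 and 4 after scaling to the same sum, and 3 were higher in the difference between effects after that scaling. Genes called between guides fell from 10529 to 6815 in PBS and from 11292 to 7191 in lactate at a mean of at least 5 FPKM, where fewer genes were tested. With 1 library left out, 1 to 2 collagens were higher in the difference between effects (2 without sgControl PBS replicate 2), and the other collagen counts stayed within 1 of those reported.

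Scaling to the same sum turned Col18a1 to -0.075 in the difference between effects and to -0.26 between guides in lactate, Col8a1 to -0.042 and -0.34 between guides in PBS and lactate, Col20a1 to -0.14 and Col5a1 to -0.053 with lactate in sgHcar1 cells. Quantile normalization turned Col18a1 to 0.050 between guides in PBS, Col8a1 to -0.067 between guides in lactate and Itgb1 to 0.016 with lactate in sgControl cells. The pseudocount of 0.1 turned Col9a3 to 0.11 in the difference between effects. With 1 library left out, the sign changed in values near 0. Col18a1 between guides in PBS ran from -0.059 to 0.034 (turned by sgControl PBS 1). With lactate in sgControl cells Col20a1 ran from -0.15 to 0.00028 (sgControl PBS 2) and Col8a1 from -0.0057 to 0.057 (sgControl PBS 3). With lactate in sgHcar1 cells Col20a1 ran from -0.040 to 0.055 (sgHcar1 PBS 3, sgHcar1 lactate 1), Col8a1 from -0.070 to 0.018 (sgHcar1 lactate 3), Col6a2 from -0.0056 to 0 (sgHcar1 PBS 1) and Col6a3 from 0 to 0.0043 (sgHcar1 lactate 1). The cause was not tested.

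Calls that rested on a single library were those of small size. The rise of Col16a1 in sgControl cells no longer passed without sgControl PBS 1 or 2 or sgControl lactate 1 or 3 (adjusted p = 0.0577 to 0.0986), nor the guide difference of Col8a1 in PBS without sgControl PBS 1 or 3 or sgHcar1 PBS 1 or 2 (0.0532 to 0.0918). The difference between effects of Col9a3 was lost without any of 8 libraries (0.0602 to 0.1), and so was the guide difference of Col18a1 in lactate (0.0515 to 0.162). Col5a1 with lactate in sgHcar1 cells passed without sgControl lactate 1, sgHcar1 PBS 2 or sgHcar1 lactate 3 (0.0121 to 0.0344), Col4a2 in sgControl cells without sgHcar1 lactate 3 (0.031), Col6a2 there without sgControl lactate 2 (0.0405), the difference between effects of Col18a1 without sgControl PBS 2 (0.0497) and Col8a1 between guides in lactate without sgHcar1 lactate 3 (0.00856). Scaling to the same sum also brought past the threshold Col18a1 between guides in PBS (-0.19, 0.0105) and Col6a2 with lactate in sgControl cells (0.12, 0.0357), and quantile normalization the latter (0.13, 0.0188).

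A replicate block was not called for, since no same-numbered pair of libraries correlated above 0.1. With the block, 7 collagens rose with lactate in sgControl cells and 3 in sgHcar1 cells, and 4 were higher between guides in lactate. The adjusted p was 0.053 for Col16a1 with lactate in sgControl cells, 0.0695 for Col18a1 between guides in lactate and 0.0366 for Col5a1 with lactate in sgHcar1 cells.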
